A study of Mus musculus with 59 samples.

Results

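A comparison of 12 of the 59 arrays of an indicator cell assay for amyotrophic lateral sclerosis (ALS) set embryoid bodies exposed to serum of SOD1 carrier mice against embryoid bodies exposed to serum of non-carrier mice. The rule that picks the 12 arrays uses the numbers in their titles and no measured value. The first block holds the non-carrier arrays NCAR133, NCAR134 and NCAR135 and the carrier arrays HEMI136, HEMI137 and HEMI138, and the second block holds NCAR139, NCAR140 and NCAR141 beside HEMI142, HEMI143 and HEMI144. The labels name no batch. The study assayed sera in groups that each had a batch of differentiated cells of their own, and the 2 blocks follow the numbers in the titles only.

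The carrier sera came from males of B6SJL-Tg(SOD1*G93A)1Gur/J hemizygous for a human mutant SOD1 transgene, a model that develops motor neuron disease, before symptoms began, and the control sera came from male littermates without the transgene. The labels give the mice as F1 progeny of C57BL/6 and SJL and 9 weeks as the time point of all 12 arrays. The responding cells carried no SOD1 transgene in either group. They were embryoid bodies made from a single mouse embryonic stem cell line, spelled HBG3 in the labels and HGB3 in the study's methods, which carries an HB9-eGFP reporter of motor neurons, and were harvested after 24 h with serum. By the study's flow cytometry of a single batch only a portion of the cells carried detectable reporter, so each array measured a mixture, in which fewer cells of a type and less RNA per cell cannot be told apart. The labels do not say whether each array had the serum of a mouse of its own, and the p-values measure the spread between these arrays.

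Much of what follows concerns the integrated stress response. In this response, kinases that sense unfolded proteins, missing amino acids or other stress phosphorylate the initiation factor eIF2, which slows protein synthesis overall while the transcription factor ATF4 is translated more. ATF4, with partners such as CHOP (encoded by Ddit3), switches on genes that import amino acids, build them and load them onto tRNAs. The PERK branch of this response, which starts from the endoplasmic reticulum (ER), has been tied to motor neuron disease.

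Levels are given as log2 of the gene's intensity on the exon array, and changes are carrier minus non-carrier on the log2 scale, fitted with the block as a covariate over 19613 genes. The intensity of 1 gene cannot be set against that of another as an amount of RNA, and dim and bright below refer to array signal only. Carrier array HEMI138 stood apart from the other arrays. Its mean Pearson correlation with the arrays of its block was 0.979, against 0.989 to 0.994 for the other 11 arrays. Its dim genes read high, with the dimmest of 10 equal groups of genes at a median of 0.51 above the non-carrier mean of the block. Results are therefore given with all 12 arrays and without HEMI138. No array pair was identical.

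Carrier serum was accompanied by lower expression of a small group of genes, 7 of them from lists of the ATF4 response and of amino acid uptake, synthesis and tRNA loading. In limma, 17 of 19613 genes passed an adjusted p of 0.05 over the 12 arrays, and all 17 were lower with carrier serum, a share of 0.0867% of the genes tested. No gene was higher at that threshold (0%), and at an unadjusted p under 0.05 there were 937 lower genes (4.78%) and 1583 higher genes (8.07%). Higher genes were 62.8% of the genes at an unadjusted p under 0.05, but 49.1% after quantile normalization of the 12 arrays. Without HEMI138, limma called 71 lower genes (0.362%) and 6 higher genes (0.0306%), with 7.98% of all genes lower and 6.57% higher at an unadjusted p under 0.05, and all 17 genes were among the 71. The 17 calls lie close to the threshold, with adjusted p between 0.0292 and 0.0493. None remained when the block was left out of the fit or when the arrays were quantile normalized, and leaving out 1 array at a time gave between 0 calls, as without NCAR134 or HEMI137, and 77 without HEMI138.

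The 17 genes were lower in both blocks. They were chosen by a fit over both blocks of these same arrays, which favours genes with alike changes. Their shared sign, separation and p in each block are therefore no separate evidence. In each block the 3 carrier arrays of every one of the 17 genes lay below the 3 non-carrier arrays. Of all genes, 294 showed this arrangement in both blocks (1.5%). The values of the 17 genes are given as a description. The changes of the 17 ran from -0.80 to -0.27 in the first block and from -0.997 to -0.25 in the second block. All 17 had an unadjusted p under 0.05 for the change in each block, and none passed the adjusted threshold within a block. Over all genes, 148 had such a p in both blocks while lower in both (0.755%). These p-values came from a fit of both blocks with a shared estimate of the spread, so the tests of the blocks are not independent. Fitted alone, the first block had 556 genes at an unadjusted p under 0.05 and the second block 4753. The shared fit gave 1204 and 2557. With 3 arrays a group in a block, limma called no gene in either block, although 744 genes were lower (3.79%) and 460 higher (2.35%) at an unadjusted p under 0.05 in the first block, and 544 lower (2.77%) and 2013 higher (10.3%) in the second block.

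Over all genes the blocks had less in common. The change had the same sign in both blocks for 11744 genes (59.9%), of which 4888 were lower in both (24.9%) and 6856 higher in both (35%). Without HEMI138 the same sign was found for 10455 genes (53.3%), with 27% lower in both and 26.3% higher in both. Pearson's r between the changes of the blocks, across 19613 genes that are not independent replicates, was 0.24 with all arrays and 0.018 without HEMI138. Genes with p under 0.05 in both blocks and the same sign were 148 lower and 75 higher (0.382%), against 56 of opposite sign. Without HEMI138 they were 289 lower and 63 higher, against 175 of opposite sign. The p-values of the blocks share an estimate of the spread, so these counts do not come from independent tests. The lower and the higher genes differed in brightness: all but 11 of the 148 lower genes, and 5 of the 75 higher genes, had a mean intensity at or above the median gene, with median log2 intensities of 8.99 and 5.57. Of the 148 lower genes, 32 belonged to the 69 measured genes of the stress and amino acid lists described below, and none of the 75 higher genes did.

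**Figure D1:**
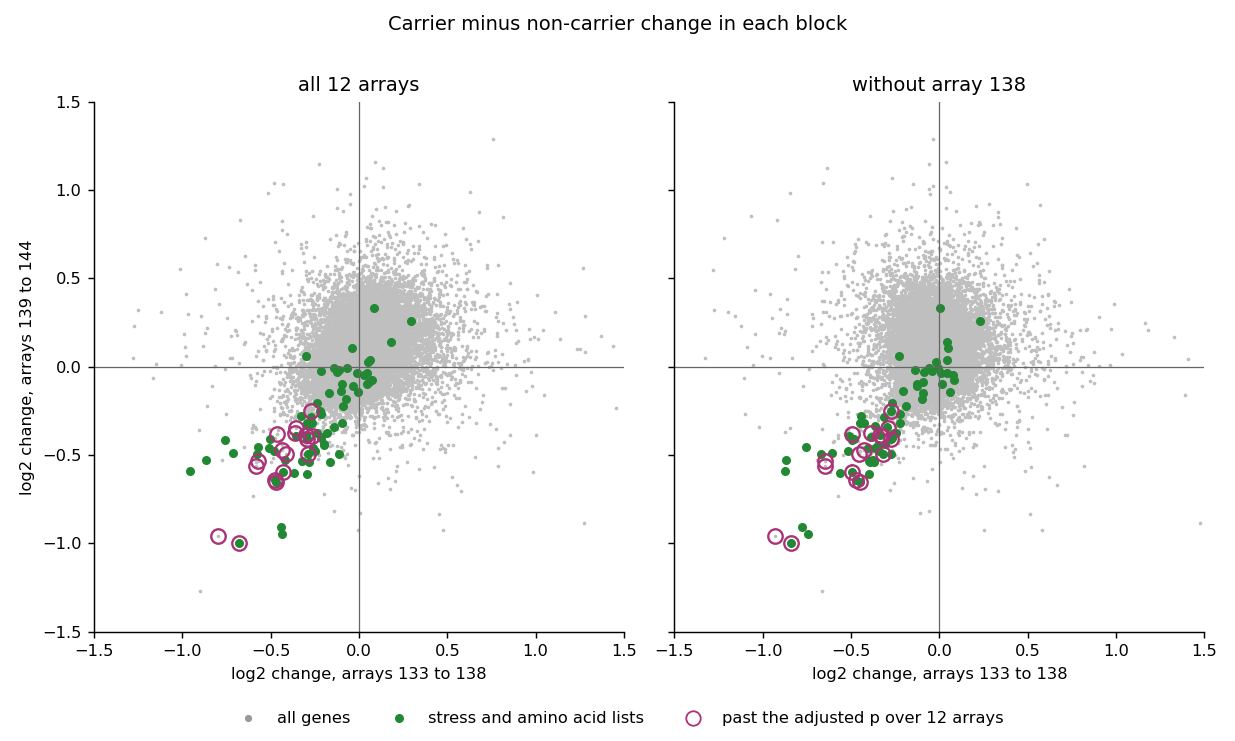
Each point is a gene, with its carrier minus non-carrier log2 change in the first block on the x axis and in the second block on the y axis, from all 12 arrays on the left and without HEMI138 on the right. Green points are the 69 genes of the stress and amino acid lists and rings mark the 17 genes past the adjusted p, all at the lower left, where both changes are negative; 3 genes on the left and 11 on the right lie beyond the axes at 1.5.

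The gene with the smallest p was Serpinf1, which encodes pigment epithelium-derived factor, a secreted protein with neurotrophic activity. In the first block its log2 intensity was 9.46, 9.49 and 9.44 with non-carrier serum and 8.86, 8.76 and 9.06 with carrier serum. In the second block it was 8.86, 8.75 and 8.93 with non-carrier and 8.42, 8.35 and 8.17 with carrier serum. The groups did not overlap in either block, HEMI138 was the highest carrier array of its block, and the step between the blocks was about as large as the step between the sera. The change was -0.55 (SE 0.061, adjusted p = 0.0292), which is 68.3% of the non-carrier level, and it was -0.58 without HEMI138 (adjusted p = 0.00301).

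The largest fall was that of Cacng3, which encodes an auxiliary subunit of AMPA-type glutamate receptors. Its log2 intensity was 8.83, 8.96 and 8.46 with non-carrier serum and 7.94, 7.70 and 8.21 with carrier serum in the first block, and 7.61, 7.40 and 7.93 against 6.77, 6.49 and 6.81 in the second block. Here too the carrier arrays lay below the non-carrier arrays within each block, while the non-carrier arrays of the second block overlapped with the carrier arrays of the first. Cacng3 reached 54.4% of the non-carrier level, a change of -0.88 (SE 0.12, adjusted p = 0.0458). No other of the 11 measured AMPA receptor and TARP genes passed the test, and the changes of the remaining 10 lay between -0.07 and 0.08.

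Cth, the cystathionine gamma-lyase that makes cysteine, fell by nearly as much. Its log2 intensity was 8.84, 8.97 and 8.59 with non-carrier serum and 8.05, 7.87 and 8.45 with carrier serum in the first block. The corresponding values in the second block were 8.69, 8.53 and 8.64 against 7.82, 7.57 and 7.47. HEMI138 lay nearest to the non-carrier arrays of its block without reaching the lowest of them, and the other 5 carrier arrays lay lower. The change was -0.84 (SE 0.11, adjusted p = 0.0458) over 12 arrays and -0.93 without HEMI138 (adjusted p = 0.00301).

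Other genes of amino acid and one-carbon metabolism were among the 17. Mthfd2, a mitochondrial folate enzyme, read 9.76, 10.11 and 9.66 with non-carrier and 9.39, 9.40 and 9.34 with carrier serum in the first block, and 9.81, 9.62 and 9.69 against 9.21, 9.03 and 8.93 in the second block. Its carrier arrays were close together in the first block, HEMI138 included, and the change was -0.56 (SE 0.082, adjusted p = 0.0458). Slc7a1, the main carrier of arginine and lysine into cells, read 10.51, 10.80 and 10.60 against 10.17, 10.11 and 10.34, and then 10.48, 10.27 and 10.30 against 9.89, 9.78 and 9.60. It too showed no overlap within a block, with a change of -0.51 (SE 0.074, adjusted p = 0.0458). Aldh18a1, which starts proline synthesis, changed by -0.39, Gpt2, the mitochondrial alanine aminotransferase, by -0.34, and Cars, the cysteinyl-tRNA synthetase of the cytosol, by -0.35. Eif4ebp1, which holds back cap-dependent translation and is an ATF4 target, changed by -0.56 (SE 0.078, adjusted p = 0.0458), and its highest carrier array in the second block was 9.89 against a lowest non-carrier array of 10.17.

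**Figure D2:**
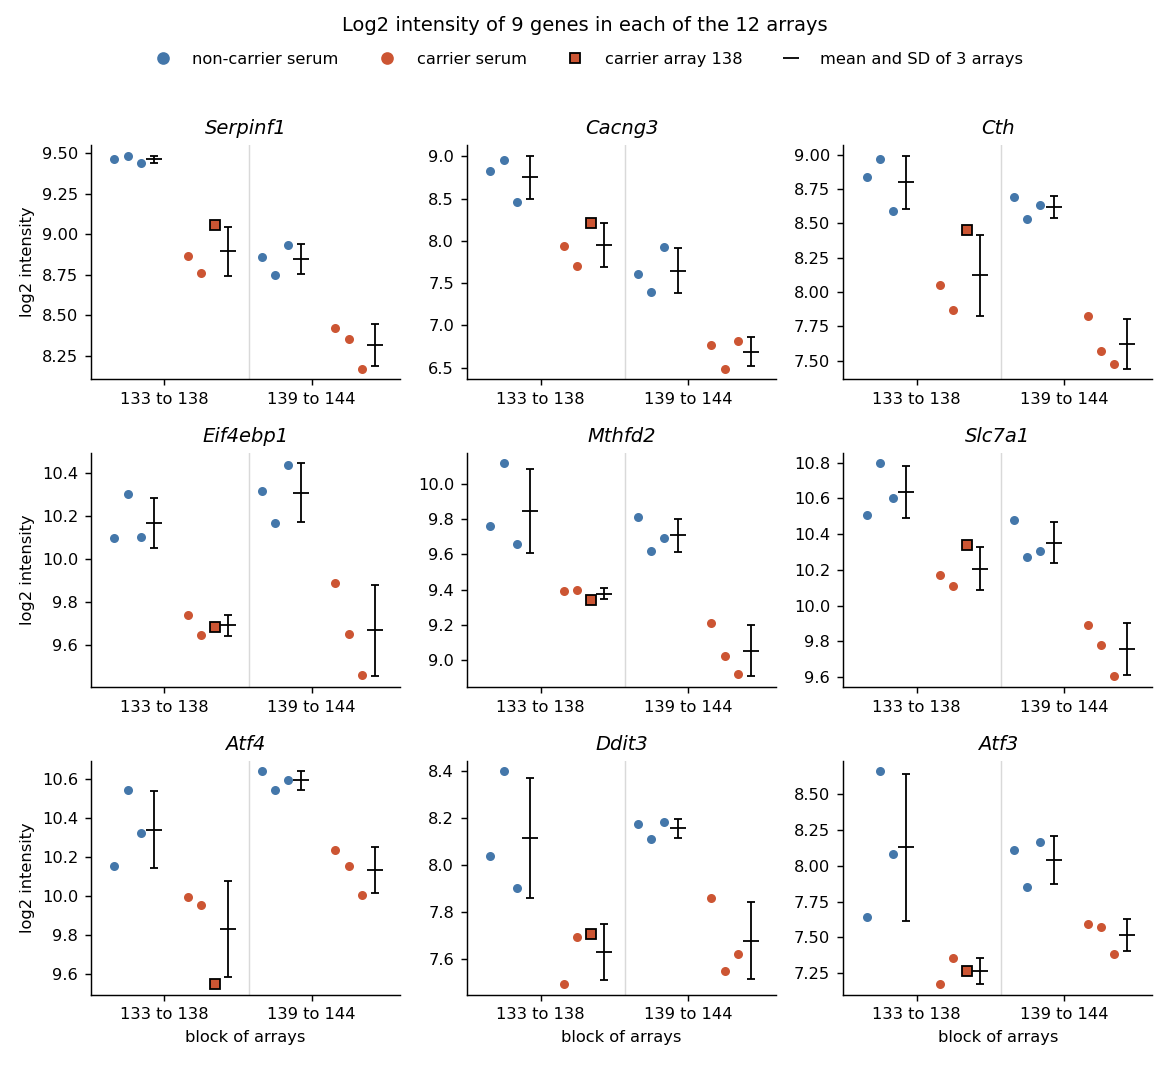
Log2 intensity of 9 genes in each array, with non-carrier arrays in blue, carrier arrays in red, HEMI138 as a square, and the mean with its SD over 3 arrays beside each group. Within each block the carrier and non-carrier arrays of all 9 genes are separate, while the level of Serpinf1 and Cacng3 also differs between the blocks.

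The remaining called genes belong to no single function. Trim66, a nuclear protein that reads chromatin marks, changed by -0.57 (adjusted p = 0.0493), with carrier arrays between 7.22 and 7.46 below non-carrier arrays between 7.71 and 8.23 in the first block. Hoxb9, a homeobox factor of the trunk, changed by -0.45 (adjusted p = 0.0458), and the other 38 measured Hox genes did not pass the test. Cyb5r1, a cytochrome b5 reductase, changed by -0.42, Plod2, which hydroxylates collagen lysines, by -0.37, Hspa9, the mitochondrial HSP70 chaperone, by -0.33, and Clic4, a chloride intracellular channel protein, by -0.26. The 2 transcripts named 2900055J20Rik and 1500012F01Rik, called outside the rule for named genes, changed by -0.45 and -0.35. Over all 17 genes HEMI138 was the highest of the 3 carrier arrays of its block in 10.

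The stress response factors themselves were lower in both blocks without passing the test over 12 arrays. Atf4 read 10.16, 10.55 and 10.32 with non-carrier serum and 10.00, 9.95 and 9.55 with carrier serum in the first block, and 10.64, 10.55 and 10.60 against 10.24, 10.16 and 10.01 in the second block. HEMI138 was here the lowest array, and the groups did not overlap in either block. The change was -0.48 (SE 0.088, adjusted p = 0.103), and without HEMI138 it was -0.42 and passed (adjusted p = 0.0375). Ddit3 read 8.04, 8.40 and 7.90 against 7.49, 7.69 and 7.70, and then 8.17, 8.11 and 8.18 against 7.86, 7.55 and 7.62. Its change was -0.48 (SE 0.085, adjusted p = 0.0863), and -0.50 without HEMI138 (adjusted p = 0.0597), so that it passed in neither fit. Atf3, a stress-induced repressor, read 7.64, 8.66 and 8.08 against 7.17, 7.35 and 7.26, and then 8.11, 7.85 and 8.17 against 7.59, 7.57 and 7.39. Its non-carrier arrays were widely spread in the first block, with a change of -0.70 (SE 0.15, adjusted p = 0.162).

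The list of ATF4 and CHOP factors and their feedback genes held 17 measured genes, of which 1 passed the test, Eif4ebp1. At an unadjusted p under 0.05, 14 of the 17 were lower and none higher, 14 were lower in both blocks and 10 were lower without overlap in both. The median change was -0.48, beside 0.02 over all genes, with -0.48 in the first block and -0.46 in the second. Over all genes 4.78% were lower at an unadjusted p under 0.05, 24.9% were lower in both blocks, 1.5% were lower without overlap in both, and 0.362% passed as lower without HEMI138, and the counts of this and the following lists stand beside these shares. Without HEMI138, 4 genes passed, Eif4ebp1, Sesn2 (-0.44), Atf4 (-0.42) and Atf5 (-0.38). The 2 members that were higher in both blocks, neither past the test, were the stress hormones Fgf21 and Gdf15, with changes of 0.21 and 0.28.

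Among the 19 cytosolic aminoacyl-tRNA synthetases measured, which load amino acids onto tRNAs, 1 passed the test over 12 arrays (Cars), 13 were lower at an unadjusted p under 0.05, and 16 were lower in both blocks. The median change was -0.21, with -0.14 in the first block and -0.27 in the second block. Without HEMI138, 11 of the 19 passed, among them Lars (-0.46), Eprs (-0.39), Tars (-0.38) and Yars (-0.34), and all 11 were lower. The synthetases for histidine and lysine and the alpha subunit of that for phenylalanine, Hars, Kars and Farsa, had changes of -0.0091, -0.037 and -0.0010 and passed in neither fit. The 16 mitochondrial synthetases measured, which serve the translation inside mitochondria, had a median change of -0.02 with 0 called, 0 at an unadjusted p under 0.05, and 7 lower in both blocks. The 2 with the smallest p, Hars2 and Vars2, had changes of -0.11 and 0.07.

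Of 14 amino acid transporters of the plasma membrane measured, Slc7a1 passed over 12 arrays, 10 were lower at an unadjusted p under 0.05 and 12 were lower in both blocks, with a median change of -0.31. Without HEMI138 the number that passed was 7, with the largest changes in Slc7a3 (-0.85), a further carrier of arginine and lysine, Slc7a11 (-0.85), the cystine carrier, Slc7a1 (-0.55), and Slc7a5 (-0.51), which brings in large neutral amino acids. For Slc7a3 and Slc7a11 the change over 12 arrays was -0.69 and -0.67, with adjusted p of 0.203 and 0.262. Slc43a1 and Slc38a4 had changes of 0.04 and -0.03.

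Enzymes of serine, folate and amino acid synthesis held the most calls of any list, 4 of 19 measured over 12 arrays (Cth, Mthfd2, Aldh18a1 and Gpt2), with a median change of -0.30 and 15 lower in both blocks. Without HEMI138, 12 passed and all were lower. Among them were Aldh1l2 (-0.58), a mitochondrial folate dehydrogenase, and Pycr1 (-0.45), the last step of proline synthesis. Psat1 (-0.44) of serine synthesis and Asns (-0.40), the asparagine synthetase, passed as well. Shmt1 and Mthfd1 of the cytosolic folate path had changes of -0.023 and 0.0067, whereas their mitochondrial counterparts Shmt2 and Mthfd1l had -0.36 and -0.31 over 12 arrays and passed without HEMI138 (adjusted p = 0.00792 and 0.00847).

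The 4 lists together had 69 measured genes, of which 7 passed over 12 arrays, 49 were lower at an unadjusted p under 0.05, 57 were lower in both blocks and 26 were lower without overlap in both, and 34 passed without HEMI138. Over all genes the shares were 0.0867% past the test, 4.78%, 24.9% and 1.5% by the same measures, and 0.362% past it as lower without HEMI138. With 1 array left out at a time, the number of the 69 past the test ranged from 0 to 34. The 34 without HEMI138 were the most, and it was 0 without any single array of the second block. The 3 arrays with non-carrier serum of each block set the zero for a median over the 69 genes in each array. This median was -0.27 in HEMI136, -0.32 in HEMI137, -0.10 in HEMI138, -0.31 in HEMI142, -0.34 in HEMI143 and -0.40 in HEMI144, and between -0.06 and 0.07 in the 6 non-carrier arrays. All 6 carrier arrays lay below all 6 non-carrier arrays, HEMI138 by the least, and it was the highest carrier array of its block for 45 of the 69 genes. The median change over the 69 genes was -0.30 as deposited, -0.27 after quantile normalization and -0.32 after median centring of each array.

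ATF4 and C/EBP factors such as CHOP bind a composite element whose core is written TGATGNAA. RefSeq promoter windows of the build GRCm38.p6, from 250 bases before to 50 after the start, were matched for 54 of the 69 genes, and 16 of them held this core on either strand (29.6%), against 1219 of 27025 genes with a window (4.51%). The lists were drawn up around targets of these factors, so the share describes the lists. Of the 17 called genes 10 had a window and 1 held the core, Serpinf1. The bases just before the start are shown 5′ to 3′ on the gene's strand for Serpinf1, the called gene with the smallest p, and for 5 list genes described above that hold the core there, with the core, or its reverse complement where it lies on the other strand, in capitals. A match is a description of the letters and no evidence of binding.
Serpinf1, chr11:75422624-75422748, minus strand: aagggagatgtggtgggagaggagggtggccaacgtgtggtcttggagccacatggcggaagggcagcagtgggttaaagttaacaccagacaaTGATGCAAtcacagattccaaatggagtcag
Atf3, chr1:191183334-191183458, minus strand: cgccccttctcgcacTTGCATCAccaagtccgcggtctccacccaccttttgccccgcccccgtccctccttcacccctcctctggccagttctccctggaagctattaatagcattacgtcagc
Asns, chr6:7693210-7693334, minus strand: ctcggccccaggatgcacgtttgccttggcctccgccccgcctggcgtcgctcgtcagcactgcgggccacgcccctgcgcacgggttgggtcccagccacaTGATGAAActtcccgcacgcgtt
Slc7a11, chr3:50443614-50443738, minus strand: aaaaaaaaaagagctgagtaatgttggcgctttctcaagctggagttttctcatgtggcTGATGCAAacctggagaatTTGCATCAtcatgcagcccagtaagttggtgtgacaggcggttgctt
Pycr1, chr11:120643749-120643873, minus strand: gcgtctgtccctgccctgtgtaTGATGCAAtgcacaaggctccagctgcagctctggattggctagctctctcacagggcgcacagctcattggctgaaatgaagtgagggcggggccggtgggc
Tars, chr15:11399659-11399783, minus strand: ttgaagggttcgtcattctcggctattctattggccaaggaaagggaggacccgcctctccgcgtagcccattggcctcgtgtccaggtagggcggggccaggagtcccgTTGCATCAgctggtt

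No gene of the other arms of the unfolded protein response passed the test over the 12 arrays. Of 17 measured ER chaperones under ATF6 and XBP1, none passed the test, 4 were lower and 6 higher in both blocks, and the median change was 0.01, a sign that turned with median centring (-0.01). Hspa5, the main ER chaperone BiP, had a change of 0.11 (adjusted p = 0.391), and the 2 members with the smallest p, Dnajb9 and P4hb, had changes of -0.30 and -0.13 (adjusted p = 0.162 and 0.282). Sel1l, 1 of 13 genes of ER-associated degradation, passed without HEMI138 with a change of -0.22. Among 15 heat shock proteins Hspa9 alone passed, and the median change was 0.04. Of 23 translation initiation factors, eIF2 kinases included, none passed over 12 arrays, and Eif2s2, a subunit of eIF2, and Eif3c passed without HEMI138 with changes of -0.28 and -0.19.

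Hypoxia-inducible genes include glycolytic enzymes and the growth factor gene Vegfa. Of 18 measured, 17 were lower in both blocks and 11 were lower at an unadjusted p under 0.05, but none passed the adjusted threshold with or without HEMI138. Their median change was -0.14, and -0.15 after quantile normalization. Ero1l, an ER oxidase, and Vegfa had the smallest p, with changes of -0.33 and -0.30 (adjusted p = 0.153 and 0.162). Of 14 p53 targets none passed over 12 arrays and 6 were lower at an unadjusted p under 0.05, and without HEMI138 there were 7, of which Eda2r, a receptor of the TNF receptor family, passed with a change of -0.31 (adjusted p = 0.0421). Over 12 arrays Gadd45a, a growth arrest gene, had a change of -0.41 (adjusted p = 0.161).

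Cholesterol synthesis genes and SREBP2 targets had a positive median in 5 of the 6 carrier arrays. Of 23 measured, 13 were higher and 0 lower in both blocks over 12 arrays, beside 35% and 24.9% of all genes. At an unadjusted p under 0.05, 1 was higher (8.07% of all genes). Without HEMI138 there were 19 higher in both (26.3% of all genes) and 14 higher at an unadjusted p under 0.05 (6.57% of all genes). No member was called in either fit. The median change was 0.06 over 12 arrays and 0.12 without HEMI138, which by itself had a median of -0.24 over this list, below all other arrays. Hsd17b7 and Mvk, enzymes of the pathway, had the smallest p, with changes of 0.20 and 0.15 (adjusted p = 0.267 and 0.396). Genes of the cytosolic ribosome had 56 of 75 lower in both blocks, 0 called and a median change of -0.10, which was -0.06 without HEMI138. Complex I subunits of the respiratory chain had 24 of 41 lower in both blocks and 0 called, with median changes of -0.07 and -0.03 in the same fits.

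**Figure D3:**
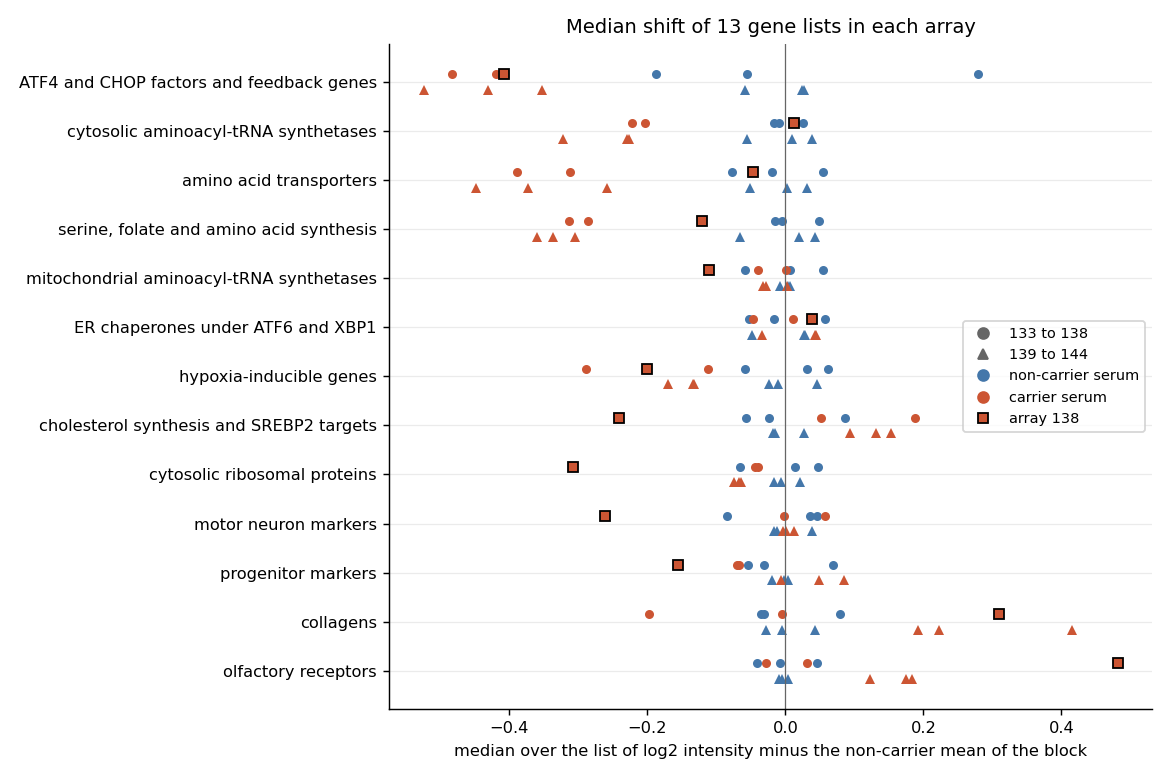
For 13 gene lists, each point is 1 array, placed at the median over the list of its log2 intensity minus the non-carrier mean of its block; circles are the first block, triangles the second block, the square HEMI138. The carrier arrays lie left of the non-carrier arrays in the first 4 lists except for HEMI138 in the synthetases and transporters, and HEMI138 stands apart in the cholesterol, ribosome, motor neuron and olfactory receptor lists.

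No gene passed the test as higher over the 12 arrays, and the genes that came nearest by the rule for named genes were dim. That rule leaves out olfactory, vomeronasal, Gm and Rik names. Of the rest, the 12 with the smallest p and the same sign in both blocks were Ms4a2, Cd163l1, Scn7a, Klhdc8a, Gpr119, Mylpf, Lrtm1, Cckbr, Gstm6, Mpeg1, Ppp1r1c and Xcr1. Their adjusted p lay between 0.144 and 0.177, their changes between 0.19 and 0.56, and their mean log2 intensities between 4.14 and 7.25, below the median of all genes at 7.30. Of these 12, 10 were higher without overlap in both blocks, as were 0.653% of all genes. The 12 were picked by p and sign on these same arrays, so their separation is no separate evidence. Scn7a, a sodium channel gene, read 4.38, 4.37 and 4.39 with non-carrier and 4.89, 4.80 and 4.98 with carrier serum in the first block, and 4.47, 4.42 and 4.48 against 4.54, 4.65 and 4.66 in the second block. Its groups did not overlap, and the step in the first block was larger than in the second. None of the 12 passed without HEMI138. With NCAR133 left out instead, Ms4a2 and Cd163l1 passed in limma (adjusted p = 0.0443 for each).

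Dim genes as a whole read higher with carrier serum in both blocks. In the dimmest of 10 equal groups of genes the median change was 0.16 in the first block and 0.17 in the second block, and in the first block it was -0.02 without HEMI138. The medians of this group in the carrier arrays were -0.002, -0.05 and 0.51 in HEMI136, HEMI137 and HEMI138 and 0.10, 0.19 and 0.21 in HEMI142, HEMI143 and HEMI144. In the first block HEMI138 alone was shifted, and in the second all 3 carrier arrays were. Olfactory receptor genes, 1021 of them and without a known role in these cells, had a median change of 0.16. Of them 537 were higher in both blocks, beside 35% of all genes. After quantile normalization their median change was 0.03 and 273 were higher in both, beside 5207 of all 19613 genes. The part of the shift of dim genes in the 1583 genes that were higher at an unadjusted p under 0.05 was not tested. Brighter genes lay slightly lower with carrier serum, with median changes of -0.029, -0.039, -0.038 and -0.034 in the 4 brightest groups, which hold 15 of the 17 called genes, and HEMI138 was at -0.088 and -0.090 in the dimmer pair of these. The called genes had changes between -0.88 and -0.26, and the part of this shift in them was not tested.

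**Figure D4:**
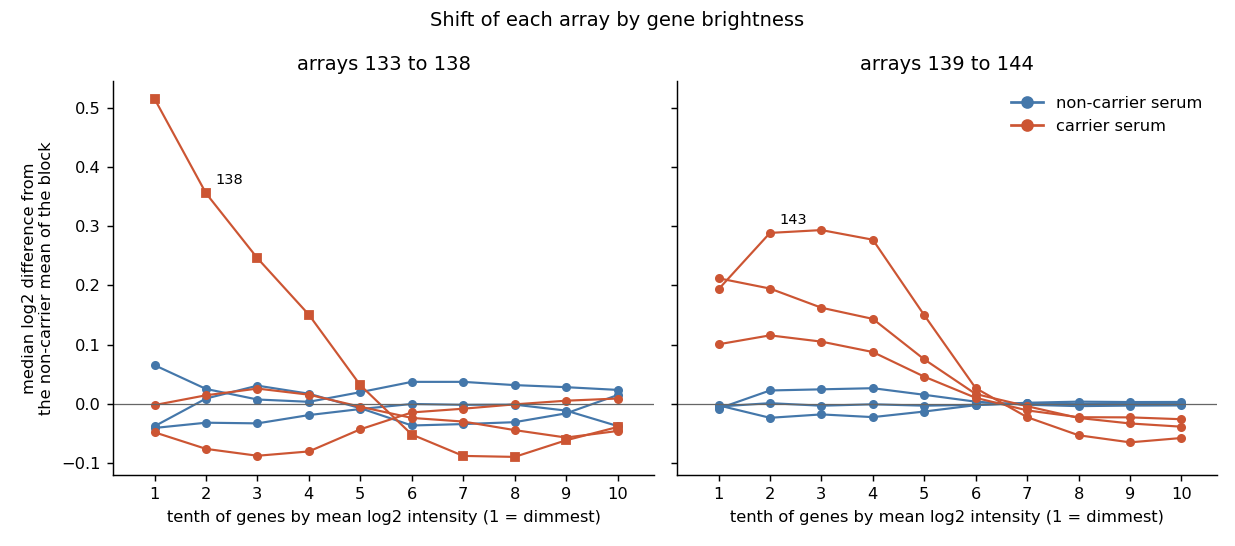
Median log2 difference of each array from the non-carrier mean of its block, for 10 equal groups of genes ordered by mean log2 intensity, with the first block on the left and the second on the right; lines join the values of 1 array, blue for non-carrier and red for carrier serum. HEMI138 rises to 0.51 in the dimmest group, and the 3 carrier arrays of the second block lie above the non-carrier arrays in each of the 5 dimmest groups.

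No marker of motor neurons, their progenitors or other cell types passed the test between the sera. Motor neuron factors were well above the dim range, with mean log2 intensities of 10.47 for Isl1, 8.96 for Mnx1 and 8.95 for Lhx3, and Olig2 of the progenitors was at 8.73. Their changes were -0.02, -0.17, -0.13 and -0.16, with adjusted p between 0.341 and 0.872, and without HEMI138 they were 0.01, -0.09, -0.03 and -0.12. HEMI138 had the lowest Mnx1 (8.35) and Lhx3 (8.31) of the 12 arrays. None of the 8 motor neuron markers and 14 progenitor markers measured passed in either fit, with median changes of -0.03 and -0.03, and both signs turned with quantile normalization. With these 4 genes as covariates beside the block, limma called 1 gene in place of 17, while the changes of the 17 lay between -1.08 and -0.23 and the median change of the 69 stress and amino acid genes was -0.33, against -0.30 without the covariates. The covariates use up part of the 9 residual degrees of freedom of the main fit, and what lowered the count was not tested. Mouse Sod1, which is not the human transgene of the serum donors, had a change of -0.05 (adjusted p = 0.653). Markers of red blood cells, endothelium, muscle, endoderm, macrophages, pluripotent cells and glia, and of neural crest, had 0 calls, mean log2 intensities of their lists between 5.53 and 8.14, and median changes between 0.06 and 0.21, in the same direction as dim genes as a whole. After quantile normalization these medians lay between -0.03 and 0.07. Their part in the results was not tested.

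The targets of LXR, NRF2, NF-kB, interferon, retinoic acid and TGF-beta, the immediate-early and Hedgehog genes, interneuron markers, neuronal structure, cell cycle, inherited ALS, proteasome, collagen and histone genes had no call over the 12 arrays. Of the 42 lists, 35 had no called gene. Without HEMI138, Hhip, a Hedgehog binder, passed with a change of -0.46 (adjusted p = 0.00729) and Rsad2, an antiviral gene, with 0.32, just under the threshold. Collagens had 28 of 42 higher in both blocks with all arrays and 7 without HEMI138, beside 35% and 26.3% of all genes. After quantile normalization of the 12 arrays 30 of the 42 were higher in both, beside 5207 of all 19613 genes, with a median change of 0.11.

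The carrier effect was not shown to differ between the blocks for any gene. The test of the difference called 0 genes, with 1118 at an unadjusted p under 0.05 (5.7%). The 17 genes had differences (second block minus first) between -0.32 for Cth (SE 0.21) and 0.08 for Cyb5r1 (SE 0.11), none at an unadjusted p under 0.05, which does not show that the changes were equal. The 17 were also chosen by a fit of 1 change over both blocks, which favours genes with alike changes. The 5 genes with the smallest p for the difference were Olfr103, Mrgprf, Olfr262, S1pr4 and Thap8, each with opposite changes in the blocks. S1pr4, a sphingosine phosphate receptor of white blood cells, had changes of -1.01 and 0.55, and Mrgprf, an orphan receptor, had -0.30 and 0.54. Their adjusted p was 0.233, and 0.356 for Thap8, and all 5 were dim, with mean log2 intensities between 4.63 and 6.16.

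Set against the other 47 arrays of the series, which are other arrays of the same deposited table and include 6 at 10 weeks and 11 whose titles name motor neurons, no gene had a carrier effect past the adjusted threshold for the difference, and 1718 had an unadjusted p under 0.05 (8.76%). All 17 genes also had a negative change with carrier serum in the other 47 arrays, 16 of them at an unadjusted p under 0.05 and 9 past the adjusted threshold, with changes between -0.34 and -0.09. Over all 19613 genes, 7986 were negative in those arrays, 5.72% were lower at an unadjusted p under 0.05, and 55 passed as lower. In the 12 arrays the changes were more negative for all 17, by 0.11 to 0.53, and the 17 were chosen on these 12 arrays. Over the 69 genes of the stress and amino acid lists the median change was -0.14 in the other 47 arrays, against -0.30 in the 12 arrays. Of the 69, 60 were negative in the other 47 arrays. At an unadjusted p under 0.05 for the difference there were 8 of the 69, beside 8.76% of all genes. All 8 were more negative in the 12 arrays, as were 516 of all 19613 genes at that p. The 5 genes with the smallest p for the difference were Scn7a, Ssxb1, Mmp27, Olfr68 and Svs4, all higher with carrier serum in the 12 arrays, with adjusted p between 0.139 and 0.278. Against the 41 other arrays at 9 weeks the difference again passed for 0 genes. Without HEMI138 it passed for Ssxb1 alone, at 0.87 (adjusted p = 0.0121). Ssxb1, of a family of testis genes, read 6.60, 7.13 and 5.60 in the carrier arrays of the first block against 5.05, 5.03 and 5.13 in the non-carrier arrays, and 5.33, 5.33 and 5.29 against 5.08, 5.18 and 5.16 in the second.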

How the data were processed

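Total RNA of whole embryoid bodies was hybridized to Affymetrix mouse exon arrays. Per the study's methods, the authors made gene values with RMA, took the mean of all exons of a gene, and removed outlier arrays by Grubbs' test. The submitters' notes name RMA and Affymetrix Expression Console. Each deposited value is a linear intensity, given for 19613 gene symbols, and not the ratio to a predicted level that the methods describe as a later step. Per the methods, validation arrays were normalized together with the training arrays. Whether exons were averaged before or after taking logs was not given in the sources used here. The number of arrays limits the precision. All 59 columns were mapped to their samples.

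Log2 of the intensities was taken with a pseudocount of 0 and fitted in R 4.3.3 by limma 3.58.1 (lmFit, then eBayes) with serum and block as terms. Tests were two-sided, and p-values were adjusted by the Benjamini-Hochberg method across every gene of the table. Changes per block and their difference came from a fit of 4 group means. The comparison with the other 47 arrays used all 59 arrays with 9 runs, read from the titles, as a block. The procedure was tested on simulated data. Dots and prefixes that had entered gene symbols were undone, and 19350 symbols matched RefSeq. The 42 gene lists are sets of textbook members or whole name families.

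The comparison, the lists and the tests were chosen with earlier results of these data known. Named genes were 8 fixed genes (Sod1, Olig2, Mnx1, Isl1, Lhx3, Atf4, Ddit3 and Atf3), the 12 largest falls and 12 largest rises past the threshold with the same sign in both blocks, filled up by smallest p, without olfactory, vomeronasal, Gm and Rik names, the 5 smallest p for each difference, and per list up to 4 called members a direction or the 2 of smallest p. Other list members and the called genes beyond the 12 were named after their values were seen.

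Alternatives were no block, quantile normalization, median centring, genes at or above the median intensity only, 16 added before log2, an intensity trend, robust variance, array weights, 4 motor neuron genes as covariates, blocks fitted alone, and each array left out. For the difference from the other 47 arrays, those at 9 weeks only and another split of 1 run were tried.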

Additional observations from a re-analysis of the deposited data

Results flagged for a closer look

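In each serum group of 6 arrays, the gap of the highest or lowest array to its neighbour was compared with the range of the group for 98 sets of values, and 4 were far from the others by Dixon's test at the 95% level, where chance marks about 5% of groups. HEMI138 had a mean correlation with the arrays of its block of 0.9785, with the next carrier array at 0.989. The same array was low in Isl1, at a log2 intensity of 10.32 against 10.46 for the next carrier array, and in Lhx3, at 8.309 against 8.852. HEMI137 was low in Olfr68, at 9.092 against 9.412. What sets these arrays apart was not tested.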

How the results depend on the processing

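The 17 calls over 12 arrays became 0 without the block, 0 after quantile normalization, 2 after median centring, 81 among genes at or above the median intensity, 45 with an intensity trend, 182 with array weights (38 of them higher) and 1 with the 4 motor neuron genes as covariates. With 1 array left out they ranged from 0 to 77. They were 0 without NCAR134, HEMI136, HEMI137, NCAR139, NCAR140, NCAR141, HEMI143 or HEMI144, 1 without HEMI142, 5 without NCAR135, 19 without NCAR133 and 77 without HEMI138. The 19 without NCAR133 held 12 of the 17 genes and 3 higher genes. Without HEMI138 there were 68 calls after quantile normalization and 352 among genes at or above the median intensity, settings added after seeing the data. For the 69 stress and amino acid genes, the 7 calls became 0 without the block, after quantile normalization, after median centring and with the covariates, 28 among genes above the median, 22 with a trend and 40 with array weights. They ranged from 0 to 34 with 1 array left out, and were 25 and 47 in the added settings, all lower. Calls in the first block were 0, 2 with array weights and 0 to 4 with 1 array left out, the 4 without HEMI137. In the second block they were 0, 10 among genes above the median, 1054 with array weights and 0 to 54 with 1 array left out, the 54 without HEMI138. HEMI138 is not in the second block, whose changes are the same without it, with a median of 0.038 over all genes in both fits. The tests of both blocks share 1 estimate of the spread, which takes in HEMI138. Fitted alone, each block had 0 calls. The difference between blocks gave 0 calls, or 0 to 1 with 1 array left out. Genes with p under 0.05 and the same sign in both blocks were 1.14% of all genes, 2.16% with array weights and 0.709% to 2.65% with 1 array left out. This share was 0.709% without NCAR139, 0.755% without NCAR141, 1.79% without HEMI138 and 2.65% without HEMI137. The difference from the other arrays gave 0 calls, 1 after quantile normalization (Apoc2, -0.76, adjusted p = 0.0431, chosen after its value was seen) and 1 without HEMI138 (Ssxb1). All 17 called genes stayed negative in all 357 values under the alternatives over 12 arrays, those added later aside, with adjusted p from 0.00239 to 0.785. Without the block, with an intensity trend or with robust variance the changes themselves equal those of the main fit. The other settings refit the arrays on which the 17 were chosen, so the kept sign is no separate evidence. The change of Isl1 turned positive after quantile normalization (0.014), with array weights (0.0077) and without HEMI138 (0.014), and was -0.035 to 0.014 with 1 array left out. What moved the counts was not tested. No paired analysis was possible because the 12 arrays all carry different numbers.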

Other observations

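Without HEMI138, limma called 77 genes, of which 34 were in the stress and amino acid lists. The others given here were chosen after their values were seen. Bcat1, which transfers the amino group of branched-chain amino acids, had a change of -0.31, Xpot, which exports tRNAs from the nucleus, had -0.40, and Etf1, which ends translation at stop codons, had -0.27. P2rx3, an ATP-gated channel of sensory neurons, had -0.60, and Hax1 and Prdx3, mitochondrial proteins, had -0.34 and -0.17. The 6 higher genes were Rgag4, Egfl6, Gm13939, Rsad2, Tmprss11e and Olfr1182, with changes between 0.15 and 0.52.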
